A study of Mus musculus and Macaca nemestrina with 20 samples.

Results

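The genes described here are the Wnt ligands, their receptors and their secreted modulators in dorsal root ganglia (DRG), the ganglia that hold the cell bodies of sensory neurons. Members were chosen by symbol: every numbered Wnt, Fzd, Sfrp, Rspo and Dkk gene, together with Lrp5, Lrp6, Lgr4, Lgr5, Lgr6, Wif1, Frzb and Axin2, with antisense symbols left out. This gave 49 of 29766 genes in the mouse tables and 49 of 35194 in the monkey tables. Symbols alone set the members, but the family was chosen with earlier results of these data known. The members were 19 Wnt ligands, 10 Frizzled receptors, 2 Lrp co-receptors, 4 R-spondins, 3 Lgr receptors, 5 secreted Frizzled-related proteins counting Frzb, Wif1, 4 Dkk inhibitors and Axin2.

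Bulk RNA sequencing was analysed for 20 DRG libraries in a series on chronic itch. In mice, 7 libraries labelled ADAM17 KO, for a membrane protease that sheds surface proteins, were compared with 7 labelled ADAM17 flox. Batch 1 held 4 KO and 3 flox libraries, and batch 2 held 3 KO and 4 flox libraries. In pig-tailed monkeys (Macaca nemestrina), 3 libraries of DRG from SADBE-treated skin (SADBE is squaric acid dibutyl ester, which sensitises skin on contact) were compared with 3 from vehicle-treated control skin. All ganglia were fresh frozen, and the mouse labels name no treatment. The labels give no Cre driver, strain, age or number of animals per library, and do not say whether SADBE and vehicle ganglia came from the same monkeys. P-values therefore measure the spread between libraries. Adam17 itself did not pass the test in mice (log2 fold change 0.03 ± 0.18 SE, adjusted p = 0.930 in edgeR), so its level does not check the genotype labels.

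Library totals in mice were 12.1 to 14.7 M counts (M, 1e6) in KO and 46.9 to 52.1 M in flox libraries of batch 1. In batch 2 they were 27.9 to 30.8 M in KO and 30.9 to 36.0 M in flox libraries. Mitochondrial transcripts took 8.21% to 8.70% in KO and 8.22% to 10.9% in flox libraries of batch 1, then 0.734% to 1.03% in KO and 1.40% to 1.76% in flox libraries of batch 2. The summed level of 4 Y-linked genes was 155.3 to 181.1 CPM in KO libraries 6 and 7 and 4.30 to 12 in the other 12 mouse libraries. Both libraries lie in batch 2, where no flox library had such a level, so in that batch it is partly confounded with genotype. Calls over both batches that were lost without those 2 libraries are named below. Batch 2 alone and the interaction of batch and genotype were not refitted without both. Monkey totals were 9.02 to 22.4 M in SADBE and 13.7 to 27.1 M in vehicle libraries. Levels are given as CPM, counts per 1e6 counts after scaling of each library, to compare libraries for 1 gene, and as TPM, which also corrects for transcript length, to compare genes.

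Wnt proteins are secreted lipid-modified ligands that bind Frizzled receptors. With the co-receptors Lrp5 or Lrp6 they stabilise beta-catenin, which enters the nucleus and binds TCF and LEF factors, while other Wnt signals act through planar polarity and calcium without it. R-spondins bind Lgr receptors and keep Frizzled receptors on the surface, whereas Sfrp proteins, Frzb and Wif1 bind Wnts outside the cell and Dkk1 blocks the Lrp co-receptors. In peripheral nerve and ganglia Wnt signals are known from neural crest development, axon growth and glial differentiation.

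Most of these genes were expressed at low to moderate levels in flox ganglia, and the most abundant were secreted inhibitors. A mean of at least 1 TPM was reached by 29 of 49 members in flox ganglia, and at least 10 TPM by 7. Sfrp4 averaged 18.3 ± 18.2 TPM in KO and 159.4 ± 171.9 TPM in flox ganglia (SD, n = 7 each), with a flox median of 102.2 TPM. Sfrp5 followed with 71.7 ± 13.0 TPM in KO and 108.1 ± 20.9 TPM in flox. Lgr4 averaged 76.5 ± 87.2 TPM in KO and 50.3 ± 40.6 TPM in flox, and Dkk3 31.3 ± 9.35 TPM in KO and 48.9 ± 15.8 TPM in flox. Sfrp4 and Lgr4 do not differ in order from their neighbours beyond this spread. Wnt6 was the most abundant ligand, at 13.3 ± 4.98 TPM in KO and 23.6 ± 5.96 TPM in flox ganglia. Fzd2 led the Frizzled receptors in flox, at 5.63 ± 3.36 TPM in KO and 9.88 ± 3.74 TPM in flox. Dkk4 was at 0 in all 14 mouse libraries, which allows at most 0.0518 to 0.238 CPM (3 counts of the library total, counting error only).

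**Figure D1:**
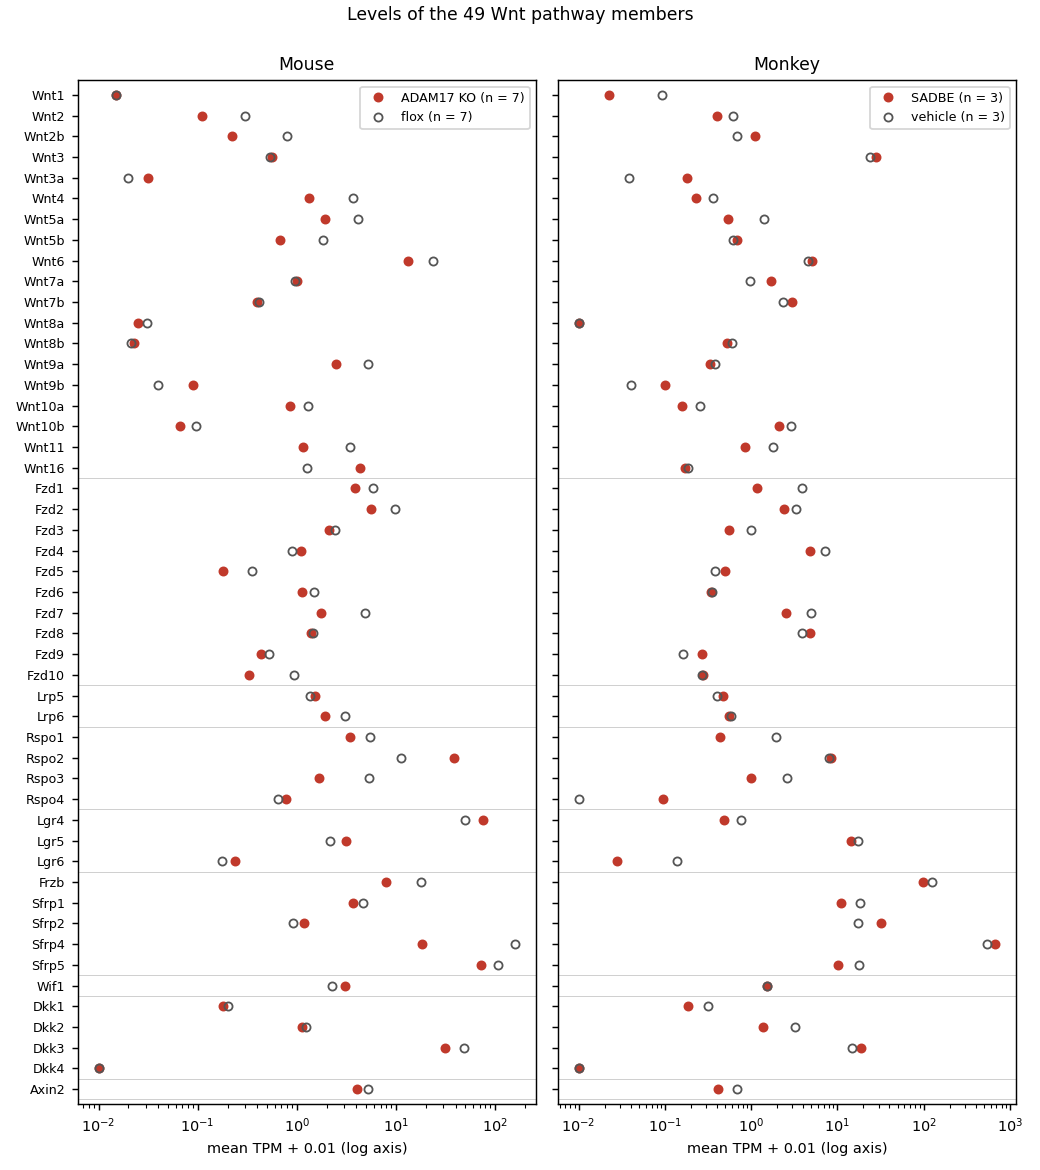
Mean TPM plus 0.01 on a log axis for the 49 members by family, in mice (filled points KO, open points flox, n = 7 each) and monkeys (filled points SADBE, open points vehicle, n = 3 each). Sfrp4, Sfrp5, Lgr4 and Dkk3 lie farthest right among flox means, and SFRP4 and FRZB among vehicle means.

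The mouse comparison asks which transcripts differ between KO and flox ganglia. The members lower in KO ganglia were 7 Wnt ligands, 4 Frizzled receptors, 3 secreted Frizzled-related proteins, 2 R-spondins, Lrp6 and Dkk3, while Rspo2, Wnt16 and Lgr4 were higher. Of 41 members with enough counts to be tested, 21 were called at an adjusted p under 0.05 in edgeR's quasi-likelihood test, which is 51.2% beside 15.5% of all 15654 genes tested. The 18 lower members were 43.9% of those tested beside 7.51% of all genes, and the 3 higher members 7.32% beside 7.97%. The median log2 fold change was -0.68 over the tested members and -0.01 over all genes, and 31 of 41 members (75.6%) lay below 0, against 50.8% of all genes. In bulk ganglia, fewer cells of a type and less RNA per cell cannot be told apart. Untested members were Dkk4, Wnt1, Wnt2, Wnt3a, Wnt8a, Wnt8b, Wnt9b and Wnt10b, all of low count.

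**Figure D2:**
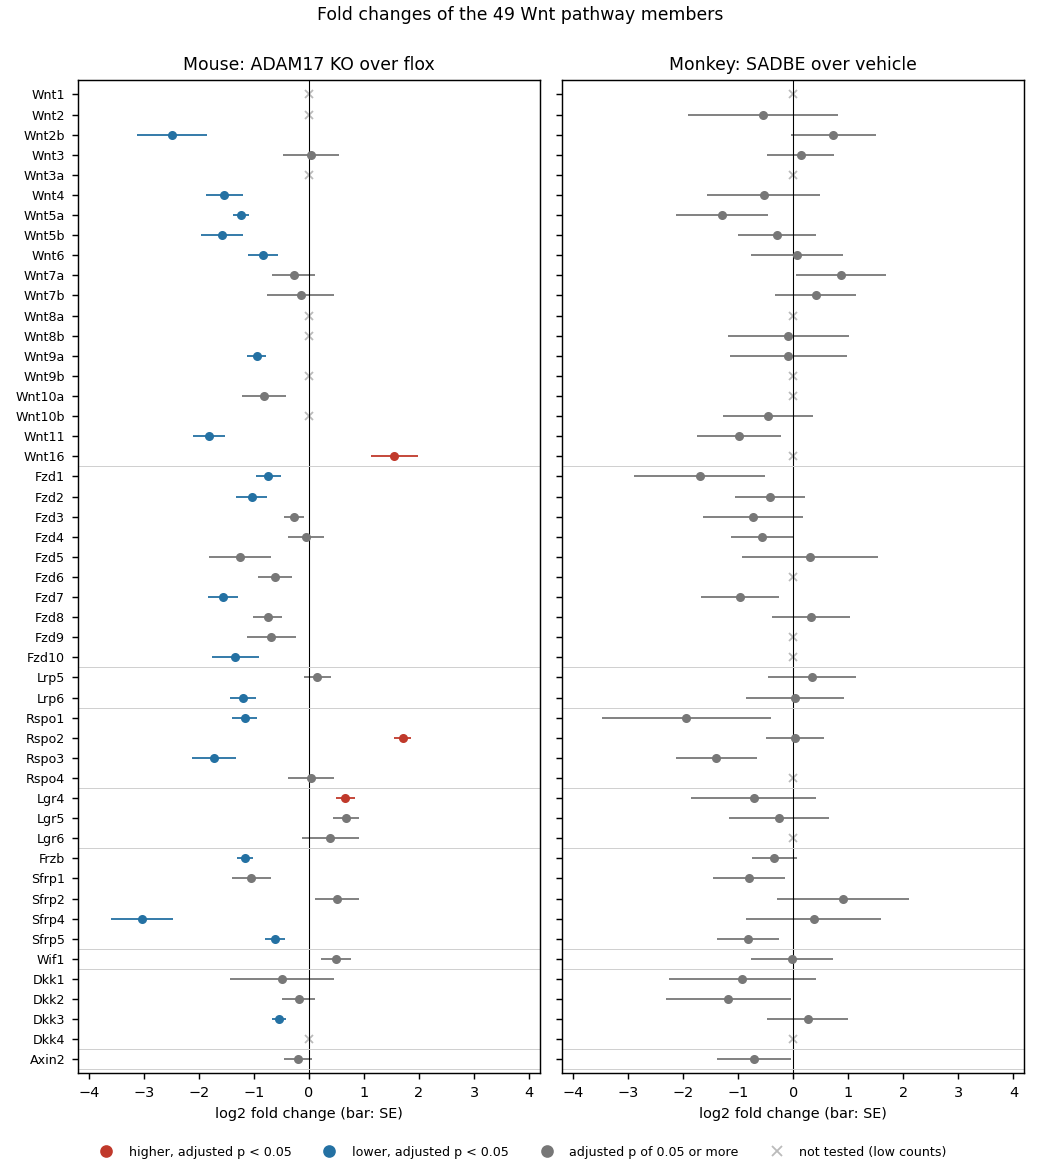
Log2 fold change (points) with its SE (bars) for each member by family, KO over flox in mice and SADBE over vehicle in monkeys; crosses mark members not tested. In mice 18 members are lower and 3 higher at an adjusted p under 0.05, and in monkeys 0 pass.

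Among the Wnt ligands, 7 of 12 tested genes fell in KO ganglia and Wnt16 rose, beside 7.51% of all genes called lower and 7.97% higher. Wnt5a, the best-known ligand of the beta-catenin-independent branch (chromosome 14, 28504750 to 28527448, plus strand, GRCm38), had 11.7, 14.9, 10.8 and 9.45 CPM in KO and 28.1, 20.6 and 27.4 CPM in flox libraries of batch 1. Its batch 2 values were 5.26, 5.37 and 7.01 CPM in KO and 13.3, 16.0, 13.6 and 16.8 CPM in flox libraries. Every KO library lay below every flox library of its batch, and batch 2 ran lower than batch 1 in both genotypes. Wnt5a was 2.34-fold lower in KO (log2 fold change -1.23 ± 0.14 SE, adjusted p = 4.64e-05). An unstranded count could not separate it from Gm2670, whose exons overlap on the opposite strand.

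Wnt11, another ligand of the beta-catenin-independent branch, had 2.07, 2.12, 2.18 and 2.94 CPM in KO and 3.2, 9.61 and 8.32 CPM in flox libraries of batch 1. Batch 2 gave 0.566, 1.26 and 1.19 CPM in KO, against 5.32, 2.91, 4.61 and 3.61 CPM in flox libraries. The groups did not overlap in either batch, with a narrow gap to flox library 1 in batch 1, and Wnt11 was 3.5-fold lower (log2 -1.81 ± 0.29, adjusted p = 0.000773). The pseudogene Gm8398 overlaps its exons on the opposite strand. Wnt9a, known from joint formation, had 4.59, 5.71, 5.35 and 9.21 CPM in KO and 9.61, 12.4 and 13.2 CPM in flox libraries of batch 1. The batch 2 libraries had 7.69, 8.72 and 8.75 CPM in KO and 19.3, 13.6, 15.9 and 17.5 CPM in flox libraries. Again no KO library of either batch reached a flox library, and Wnt9a fell by 0.95 ± 0.17 on the log2 scale (adjusted p = 0.00138).

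Wnt4, a ligand of kidney and gonad development, had 4.52, 4.62, 3.23 and 8.18 CPM in KO and 10.8, 37.9 and 18.8 CPM in flox libraries of batch 1. In batch 2 the values were 2.79, 5.71 and 5.10 CPM in KO and 7.30, 6.71, 7.35 and 13.3 CPM in flox libraries. The groups were apart in both batches, most widely in batch 1, where flox library 2 was highest. Wnt4 fell by 1.54 ± 0.33 on the log2 scale (adjusted p = 0.00576) but batch 2 taken alone gave no call (-0.93, adjusted p = 0.106).

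Wnt5b, Wnt2b and Wnt6 also fell, and each overlapped between genotypes in at least 1 batch. Wnt5b, the ligand closest in name and sequence to Wnt5a, ran from 0.594 through a median of 1.33 to 2.22 CPM in KO and from 0.869 through 2.99 to 5.77 CPM in flox ganglia (log2 -1.58 ± 0.39, adjusted p = 0.0129), with the groups apart in batch 1 and no call in either batch alone (adjusted p = 0.0755 and 0.168). Wnt2b ran from 0 through 0.565 to 1.83 CPM in KO and from 1.23 through 2.30 to 4.04 CPM in flox (log2 -2.49 ± 0.64, adjusted p = 0.0165). It did not overlap in batch 2, where the 3 KO libraries had 0.243, 0.114 and 0 CPM, near the 0.114 to 0.127 CPM that 3 counts make there. Wnt2b had a log2 fold change of -4.16 in batch 2 alone (adjusted p = 0.0133), which rests on these low counts. In batch 1 alone it was -1.26 and not called (adjusted p = 0.288). Without KO libraries 6 and 7 its call was lost. Wnt6, an epithelial and somite ligand, ran from 11.9 through 17.9 to 36.0 CPM in KO and from 25.4 through 44.6 to 59.6 CPM in flox, and its call stood at the threshold (log2 -0.83 ± 0.27, adjusted p = 0.0497). Leaving out single libraries ended the Wnt6 call in 10 of 14 cases, with adjusted p-values up to 0.115. The neighbouring Wnt10a on chromosome 1 had a log2 fold change of -0.82 ± 0.41 and was not called (adjusted p = 0.185).

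Wnt16, a ligand known for its role in cortical bone, was the member of this family that rose. It had 9.49, 5.39, 5.41 and 5.95 CPM in KO and 0.553, 2.81 and 2.42 CPM in flox libraries of batch 1. For batch 2 the levels were 4.17, 3.96 and 3.01 CPM in KO and 3.41, 1.09, 0.451 and 0.964 CPM in flox libraries. The groups were apart in batch 1, and in batch 2 flox library 4 lay within the KO range. The log2 fold change was 1.55 ± 0.42 (2.93-fold, adjusted p = 0.0216), and neither batch alone gave a call. Wnt3, Wnt7a and Wnt7b were tested and not called, with log2 fold changes of 0.03 ± 0.51, -0.28 ± 0.39 and -0.15 ± 0.61. Wnt2, a ligand of lung development below the count filter, had 0 counts in all 3 KO libraries of batch 2 and 25, 16, 43 and 4 counts in the flox libraries of that batch. In batch 1 it had 8, 12, 0 and 0 counts in KO and 8, 37 and 8 counts in flox libraries. Flox totals of batch 1 were higher (46.9 to 52.1 M against 12.1 to 14.7 M in KO), so these counts do not compare levels between genotypes. After scaling, the highest KO library, which lay in batch 1, had 0.769 CPM, and flox libraries of both batches had 0.124 to 1.39 CPM. The batches differed in pattern, and Wnt2 was called lower in batch 2 alone (adjusted p = 0.0274).

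**Figure D3:**
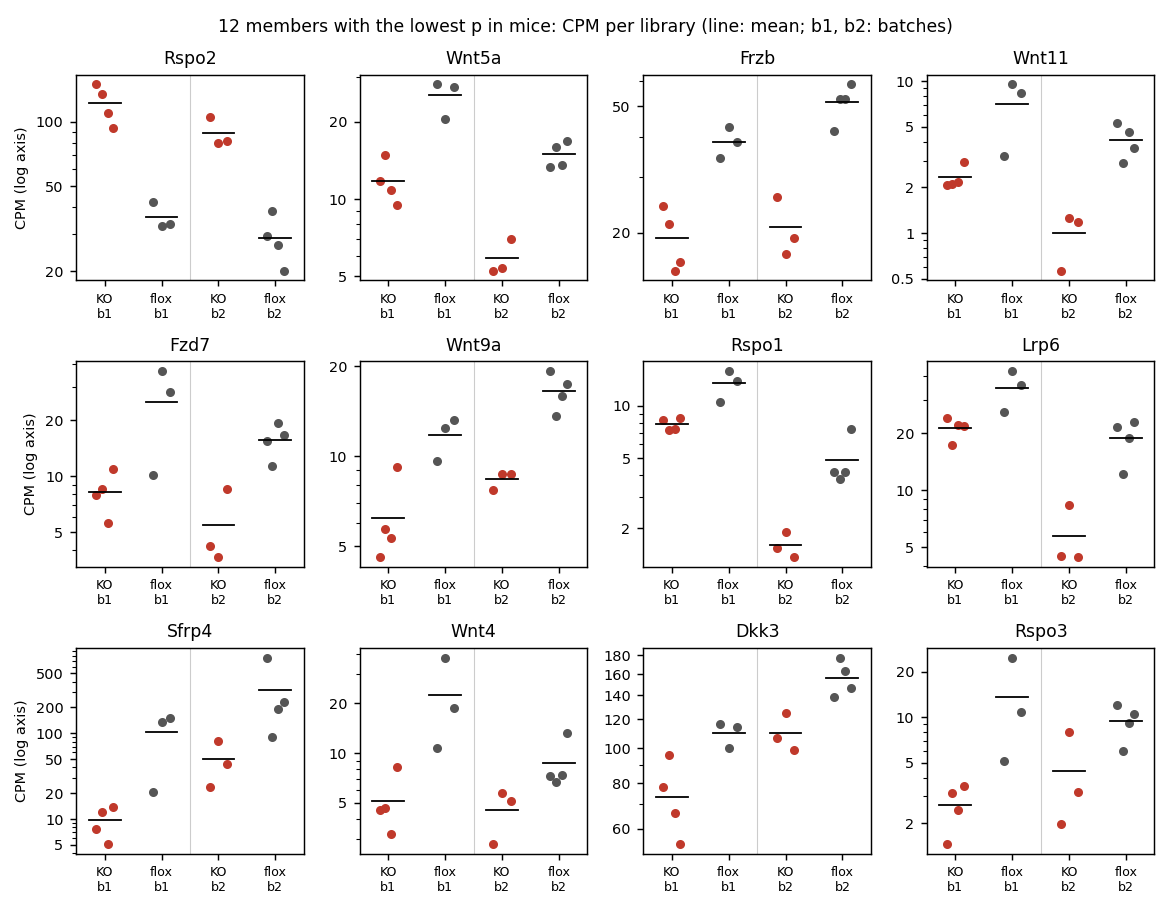
CPM on a log axis in each of the 14 mouse libraries for the 12 members of lowest p, split by batch (b1, b2), with KO left of flox and a line at each mean. Rspo2 is higher in every KO library than in any flox library, and the other 11 members have lower KO means in both batches.

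The promoter windows of the called members were read because many of them fell together and TCF and LEF factors carry the beta-catenin signal to the DNA. RefSeq windows (GRCm38.p6, from 250 bases before to 50 after each gene's start) were found for 32 of 49 members by symbol, and the motifs CTTTGAT and CTTTGAA were searched on both strands. Both motifs were absent from the 2 windows of members that rose and present in those of 2 of 12 members that fell (16.7%), 3 of 32 members in all (9.38%) and 2671 of 27025 genes (9.88%). The members therefore held a motif about as often as all genes. The fallen members with a match were Wnt5b and Wnt11, shown here 5′ to 3′ on the strand of each gene with the match in capitals. The Wnt5b window (chr6:119449337-119449636, minus strand) is that of the last of its 3 starts and holds the match 71 bases before that start. The Wnt11 window (chr7:98834862-98835161, plus strand) holds it on the opposite strand, 51 bases before the start. The window of Axin2 (chr11:108920099-108920398, plus strand), the textbook beta-catenin target, is shown beside them, since it has neither motif within these 300 bases and its transcript was not called.
Wnt5b: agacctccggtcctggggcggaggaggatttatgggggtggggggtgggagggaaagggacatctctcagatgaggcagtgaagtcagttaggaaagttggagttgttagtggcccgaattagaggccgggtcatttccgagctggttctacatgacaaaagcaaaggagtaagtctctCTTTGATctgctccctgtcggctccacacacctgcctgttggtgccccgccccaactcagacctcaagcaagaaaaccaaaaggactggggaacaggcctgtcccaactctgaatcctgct
Wnt11: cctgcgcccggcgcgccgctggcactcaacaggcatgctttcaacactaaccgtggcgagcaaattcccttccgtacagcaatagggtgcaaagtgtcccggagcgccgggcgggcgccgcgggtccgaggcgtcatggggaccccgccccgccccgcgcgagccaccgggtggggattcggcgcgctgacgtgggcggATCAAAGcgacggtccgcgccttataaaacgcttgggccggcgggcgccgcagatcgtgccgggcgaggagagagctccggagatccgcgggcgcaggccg
Axin2: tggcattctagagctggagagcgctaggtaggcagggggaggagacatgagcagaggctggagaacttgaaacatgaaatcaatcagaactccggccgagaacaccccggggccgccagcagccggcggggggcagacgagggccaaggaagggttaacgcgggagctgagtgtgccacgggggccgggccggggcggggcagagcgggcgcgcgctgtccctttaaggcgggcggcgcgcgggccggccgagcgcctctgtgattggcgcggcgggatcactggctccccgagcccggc

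All 10 Frizzled receptors were tested, and 4 fell, namely Fzd7, Fzd2, Fzd1 and Fzd10, beside 7.51% of all genes called lower. The median log2 fold change over the 10 was -0.75, beside -0.01 over all genes. Fzd7, a receptor used by stem and progenitor cells (chromosome 1, 59482424 to 59486955), had 7.92, 8.53, 5.61 and 10.9 CPM in KO and 10.1, 36.8 and 28.3 CPM in flox libraries of batch 1. Its batch 2 values were 4.21, 3.65 and 8.49 CPM in KO and 15.5, 11.3, 19.3 and 16.7 CPM in flox libraries. The groups were apart in batch 2, and in batch 1 KO library 4 lay above flox library 1 alone. Fzd7 was 2.96-fold lower (log2 -1.57 ± 0.27, adjusted p = 0.00134).

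Fzd2, the most abundant Frizzled receptor in flox, ran from 6.92 through a median of 14.3 to 46.2 CPM in KO and from 19.4 through 26.6 to 67.3 CPM in flox ganglia (log2 -1.04 ± 0.29, adjusted p = 0.0229). In batch 1, KO libraries 3 and 4 lay above flox library 1, and in batch 2 the groups were apart. The Fzd2 call was lost without KO library 5, without flox library 2 and without KO libraries 6 and 7 together, with adjusted p-values up to 0.0685 when 1 library was left out. Fzd1, a close relative of Fzd2 and Fzd7, fell by 0.74 ± 0.22 on the log2 scale (adjusted p = 0.0346), with 3.86 ± 1.25 TPM in KO and 5.89 ± 1.72 TPM in flox. Fzd10 fell by 1.34 ± 0.42 (adjusted p = 0.0427), with 0.320 ± 0.314 TPM in KO and 0.924 ± 0.663 TPM in flox. Leaving out 1 library ended the Fzd1 call in 8 of 14 cases, with adjusted p up to 0.0939, and the Fzd10 call in 11 of 14, with adjusted p up to 0.103. The Fzd10 call was also lost without KO libraries 6 and 7 together. The other 6 receptors had log2 fold changes from -1.25 (Fzd5) to -0.06 (Fzd4), with Fzd8 nearest to a call (-0.75 ± 0.25, adjusted p = 0.0563). The sign of Fzd4 was not stable, since its log2 fold change was 0.18 in batch 1 alone and 0.22 with no batch term.

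The co-receptors of beta-catenin signalling differed in outcome. Lrp6 (chromosome 6, 134446476 to 134566965, minus strand) had 24.0, 17.4, 22.1 and 21.8 CPM in KO and 26.0, 42.6 and 35.7 CPM in flox libraries of batch 1. Batch 2 gave 4.49, 8.34 and 4.42 CPM in KO and 21.6, 12.2, 18.8 and 22.8 CPM in flox libraries. No KO library reached a flox library of its batch, and log2 fold changes were -0.74 in batch 1 and -1.70 in batch 2. Lrp6 was 2.29-fold lower (log2 -1.20 ± 0.23, adjusted p = 0.00277). Lrp5, best known from bone mass, was not called: it had 5.77 to 22.6 CPM in KO and 7.39 to 15.3 CPM in flox, with a log2 fold change of 0.15 and a 95% interval of -0.37 to 0.67.

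R-spondins split in opposite directions. Rspo2 (chromosome 15, 43020794 to 43170826, minus strand), which raises Wnt signalling through Lgr receptors, had 150.4, 135, 109.7 and 93.2 CPM in KO and 42.0, 32.6 and 33.3 CPM in flox libraries of batch 1. The batch 2 libraries had 105, 79.7 and 81.7 CPM in KO and 29.1, 38.4, 26.6 and 20.1 CPM in flox libraries. The lowest KO library stood above the highest flox library across both batches. Rspo2 rose 3.25-fold (log2 1.70 ± 0.15, adjusted p = 2.56e-06), with log2 fold changes of 1.73 in batch 1 and 1.64 in batch 2. It had the lowest p of all members, and per length it averaged 38.3 ± 11.4 TPM in KO and 11.2 ± 2.98 TPM in flox ganglia.

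Rspo1, the R-spondin of ovary development, had 8.29, 7.24, 7.33 and 8.49 CPM in KO and 10.5, 15.8 and 13.8 CPM in flox libraries of batch 1. In batch 2 the values were 1.54, 1.90 and 1.36 CPM in KO and 4.17, 3.80, 4.19 and 7.37 CPM in flox libraries. The genotypes were apart in each batch, and batch 2 ran lower than batch 1 in both genotypes. Rspo1 fell by 1.17 ± 0.22 on the log2 scale (adjusted p = 0.0024). Rspo3, known from blood vessel development, had 1.44, 3.14, 2.44 and 3.49 CPM in KO and 5.15, 24.9 and 10.9 CPM in flox libraries of batch 1. For batch 2 the levels were 1.98, 7.99 and 3.23 CPM in KO and 12.1, 5.97, 9.13 and 10.5 CPM in flox libraries, where KO library 6 lay above flox library 5. Rspo3 fell by 1.72 ± 0.40 (adjusted p = 0.00886), but neither batch alone gave a call (-2.41 with adjusted p = 0.0555 in batch 1, -1.09 with adjusted p = 0.139 in batch 2). Gm48159 overlaps its exons on the opposite strand. Rspo4 was not called (log2 0.04 ± 0.42).

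Of the 3 receptors of R-spondins 0 lay below 0, beside 50.8% of all genes, and only Lgr4 was called. Lgr4, the most widely expressed of them, had 41.4, 36.3, 38.7 and 34.7 CPM in KO and 29.5, 35.7 and 35.9 CPM in flox libraries of batch 1. Its batch 2 values were 466, 885 and 839 CPM in KO and 379, 296, 323 and 318 CPM in flox libraries. The genotypes overlapped in batch 1 and were apart in batch 2. Flox mean TPM differed 12-fold between batches, with 82.8 TPM in batch 2 and 6.92 TPM in batch 1, a ratio widened by the lower TPM sums of batch 1 libraries. Over both batches Lgr4 rose by 0.66 ± 0.18 on the log2 scale (adjusted p = 0.0194), with 0.13 in batch 1 (adjusted p = 0.688) and 1.15 in batch 2 (adjusted p = 0.00637). The difference between batches did not pass the test (interaction 0.99 ± 0.26, adjusted p = 0.0786). The Lgr4 call was lost without flox library 7 (adjusted p = 0.0543) and without KO libraries 6 and 7 together. Lgr5, a marker of intestinal stem cells, had a log2 fold change of 0.67 ± 0.24 (adjusted p = 0.0702) and Lgr6 one of 0.39 ± 0.51 (adjusted p = 0.647).

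Secreted Frizzled-related proteins gave the deepest decrease. Sfrp4, a Wnt antagonist of bone and connective tissue (chromosome 13, 19623104 to 19632994, plus strand), had 7.73, 12.1, 5.08 and 13.9 CPM in KO and 20.8, 136 and 153 CPM in flox libraries of batch 1. Batch 2 gave 24.0, 81.9 and 43.8 CPM in KO and 762.3, 90.5, 194 and 232 CPM in flox libraries. The groups were apart in each batch, but flox libraries ranged widely, and flox library 4 stood far above the rest. Sfrp4 was 8.21-fold lower (log2 -3.04 ± 0.56, adjusted p = 0.0033), with adjusted p-values of 0.056 in batch 1 alone and 0.0825 in batch 2 alone. Without any single library, flox library 4 included, the call held, with adjusted p up to 0.0108.

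Frzb, a Wnt antagonist named for its Frizzled-like domain (chromosome 2, 80411970 to 80447625, minus strand), had 24.2, 21.2, 15.2 and 16.1 CPM in KO and 34.4, 42.9 and 38.7 CPM in flox libraries of batch 1. The batch 2 libraries had 26.0, 17.1 and 19.2 CPM in KO and 41.7, 52.6, 52.6 and 58.8 CPM in flox libraries. Every KO library of either batch lay below every flox library. Frzb was 2.23-fold lower (log2 -1.16 ± 0.14, adjusted p = 7.23e-05). Sfrp5 ran from 82.0 through a median of 102.6 to 184.5 CPM in KO and from 114 through 171 to 250.2 CPM in flox. In batch 1, KO library 4 lay above flox libraries 1 and 3, and in batch 2 the groups were apart (log2 -0.61 ± 0.18, adjusted p = 0.0327). Leaving out 1 library ended the Sfrp5 call in 9 of 14 cases, with adjusted p up to 0.0929, as did leaving out KO libraries 6 and 7 together.

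Sfrp1 had a different outcome in each batch. In batch 1 it had 23.8, 27.3, 19.1 and 17.2 CPM in KO and 26.2, 19.1 and 22.1 CPM in flox libraries. In batch 2 the values were 3.84, 4.11 and 1.70 CPM in KO and 17.0, 16.0, 10.9 and 12.5 CPM in flox libraries. Groups overlapped in batch 1 and were apart in batch 2, and the interaction of batch and genotype was -2.09 ± 0.39 on the log2 scale (adjusted p = 0.022). It was the 1 of 41 members with such a call (2.44% beside 1.03% of all genes, 0.658% higher and 0.371% lower), and the call was lost without KO library 1 (adjusted p = 0.0518), flox library 2 (0.074) or flox library 3 (0.0602). Over both batches Sfrp1 was not called (-1.05 ± 0.35, adjusted p = 0.054), nor was Sfrp2 (0.51 ± 0.41, adjusted p = 0.424).

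The remaining inhibitors held 1 call. Dkk3, a divergent Dickkopf protein, had 78.2, 95.5, 66.2 and 54.3 CPM in KO and 116, 99.8 and 114 CPM in flox libraries of batch 1. For batch 2 the levels were 106, 125 and 98.7 CPM in KO and 138, 178, 163 and 146 CPM in flox libraries. No KO library reached a flox library of its batch, and the difference was the smallest among the called members (log2 -0.55 ± 0.12, adjusted p = 0.00655). Dkk1 and Dkk2 were not called, with log2 fold changes of -0.49 ± 0.94 and -0.19 ± 0.30. Wif1, which binds Wnts directly, was not called either (0.50 ± 0.27, adjusted p = 0.230).

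Axin2, a scaffold of the complex that degrades beta-catenin and itself a standard readout of that pathway, was not called. It had 3.46, 2.76, 2.44 and 6.27 CPM in KO and 3.37, 7.47 and 5.27 CPM in flox libraries of batch 1. Its batch 2 values were 15.9, 11 and 11.7 CPM in KO and 8.10, 10.4, 13.3 and 15.5 CPM in flox libraries. Groups overlapped in both batches, and the log2 fold change was -0.20 with a 95% interval of -0.73 to 0.34 (adjusted p = 0.637). The antisense gene Gm11670 overlaps its exons. Of the 10 transcripts listed as induced by beta-catenin outside the members, 9 were tested, 0 rose and 2 fell, beside 7.97% of all genes called higher and 7.51% lower. The fallen ones were Nkd1, a feedback inhibitor (log2 -1.05 ± 0.23), and Rnf43, a ligase that removes Frizzled receptors (-2.31 ± 0.70). Rnf43 was low, with a mean of 0.227 CPM in KO and 1.10 CPM in flox, where 3 counts in a KO library are 0.114 to 0.238 CPM. The median over the list was -0.10, beside -0.01 over all genes.

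Calls among the other pathway genes were spread over the lists. Over all genes tested, 7.97% were called higher and 7.51% lower, and lists this short were not tested against these shares. Of 11 genes of the destruction complex and the Dishevelled proteins, Apc and Gsk3b rose, by log2 0.35 ± 0.09 and 0.46 ± 0.13. Ctnnb1, which encodes beta-catenin, fell by 0.49 ± 0.13 on the log2 scale and Axin1 by 0.71 ± 0.23. Among 13 nuclear factors 0 rose and Tcf7l1, Bcl9l and Tle2 fell, and among 10 planar polarity genes 0 rose and Prickle1 and Scrib fell. The 5 alternative receptors held 1 call, Ryk (-0.76 ± 0.19), and the 8 tested extracellular inhibitors outside the members also held 1, Kremen1 (-1.01 ± 0.25). Of the 4 genes for acylation, secretion and removal of ligands, Trabd2b, a protease that inactivates Wnts, fell by 1.59 ± 0.37, while Porcn and Wls, needed by all Wnts for acylation and secretion, were not called (0.14 ± 0.14 and -0.05 ± 0.14). Receptor turnover held Rnf43 and Znrf3, of which Rnf43 fell as given above.

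Every called member tested in both batches had the same sign in each, with Fzd10 untested in batch 1. Neither batch alone called Wnt5b, Wnt6, Wnt16, Fzd1, Rspo3 or Sfrp4, and batch 2 alone did not call Fzd10. Batch 1 alone gave 4 calls among 38 tested members (10.5% beside 1.80% of all genes), namely Rspo2 higher (beside 1.12% of all genes) and Wnt5a, Frzb and Wnt4 lower (beside 0.687%). Batch 2 alone gave 15 among 41 (36.6% beside 13.2%), 2 higher (beside 7.22% of all genes) and 13 lower (beside 5.99%). Median log2 fold changes of members were -0.59 in batch 1 and -0.74 in batch 2. Groups did not overlap in either batch for Rspo2 among higher members (2.44% of members beside 3.25% of all genes). Among lower members this held for 9 (22.0% beside 2.25%), namely Wnt5a, Wnt11, Wnt9a, Wnt4, Lrp6, Rspo1, Sfrp4, Frzb and Dkk3. Rspo2, Wnt5a and Frzb were called under all 26 alternative settings run.

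**Figure D4:**
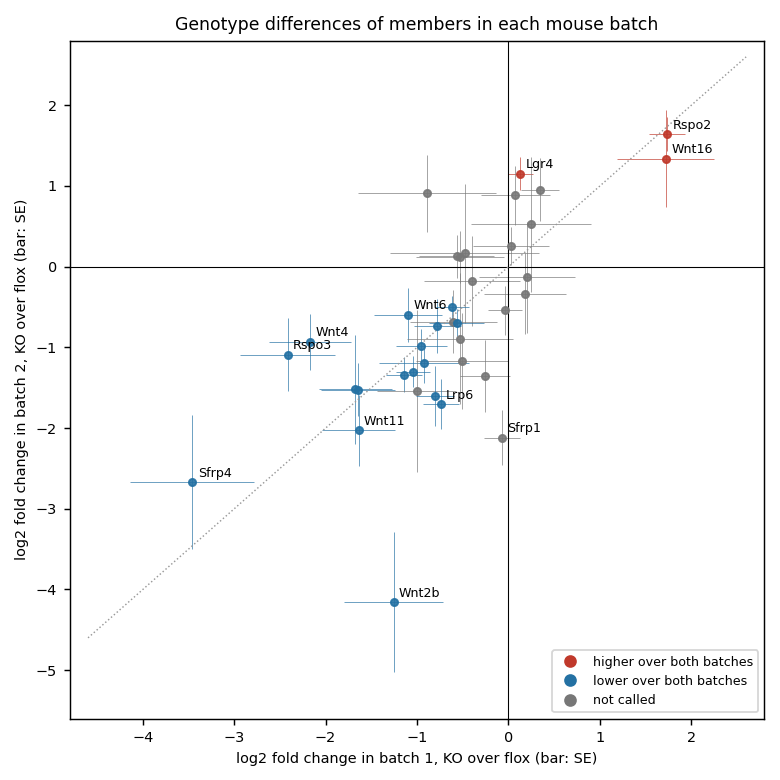
Log2 fold change of each member tested in both mouse batches, KO over flox, with batch 1 on the x axis and batch 2 on the y axis, SE as bars and the dotted line marking equal values. Rspo2 lies at 1.73 and 1.64, Sfrp1 at -0.07 and -2.12, and Lgr4 at 0.13 and 1.15.

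Marker lists of several cell types moved in the same libraries. Over all genes tested, 7.97% were called higher and 7.51% lower, and the marker lists were not tested against these shares. Of 6 fibroblast markers 5 fell and 0 rose, with a summed level of 1386 to 3373 CPM in KO and 2917 to 5839.9 CPM in flox ganglia. In batch 1 the KO library with the highest fibroblast sum (3282 CPM, library 4) lay above the flox library with the lowest (2917 CPM, library 1). In batch 2 the fibroblast sums were apart, with at most 3373 CPM in KO and at least 4207 CPM in flox libraries. All 5 markers of myelinating Schwann cells fell, with 2931 to 5229.7 CPM in KO and 5060.1 to 9962 CPM in flox, as did 5 of 6 markers of meninges and perineurium, with 162 to 405 CPM in KO and 350.1 to 669 CPM in flox. Within each batch the Schwann cell sums were apart, while those of meninges and perineurium overlapped in batch 1 and were apart in batch 2. Cartilage and tendon markers fell in 4 of 6 tested, with 9.45 to 19.8 CPM in KO and 25.9 to 64.7 CPM in flox.

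Sensory neuron markers identified the tissue in every mouse library, and 3 of 8 rose, with 4468 to 7865 CPM in KO and 3078 to 6046 CPM in flox. Of 5 satellite glia markers 1 rose, with 3034 to 5471 CPM in KO and 2679.8 to 3524 CPM in flox. All 4 neutrophil markers rose, with 375 to 4413 CPM in KO and 25.8 to 516 CPM in flox. Within each batch the neutrophil sums were apart, while those of sensory neurons and satellite glia overlapped in batch 1 and were apart in batch 2. Among markers of bone 1 of 3 tested fell, among those of mural cells 1 of 4 fell, and among those of keratinocytes 1 of 3 tested rose and 1 fell. Single calls in lists this short were not set apart from the shares over all genes (7.97% higher, 7.51% lower). None of the markers of endothelium, macrophages, skeletal muscle, spinal cord, erythroid cells or adipocytes was called. No marker was at 0 in all mouse libraries, and the part of these cell types in the members' differences was not tested.

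**Figure D5:**
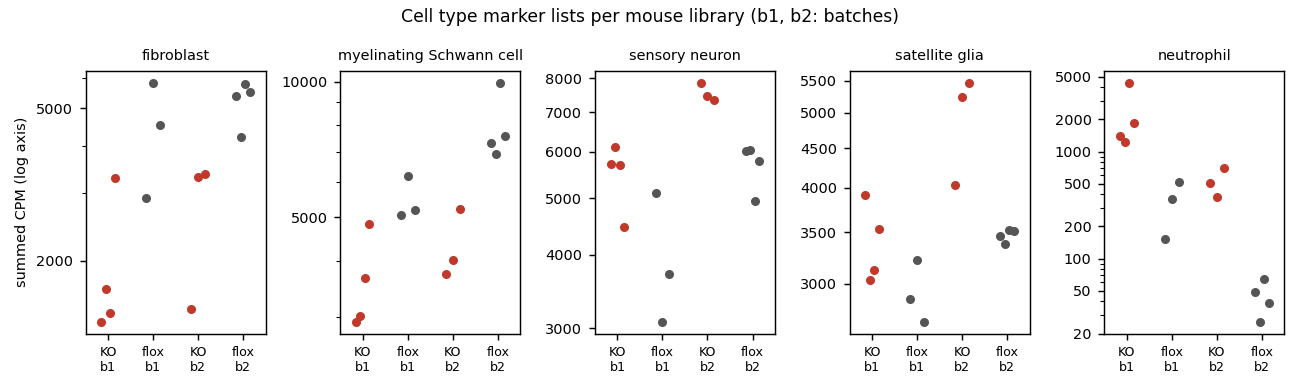
Summed CPM on a log axis of 5 marker lists in each mouse library, split by batch (b1, b2), with KO left of flox. Within each batch, the myelinating Schwann cell sums are lower and the neutrophil sums higher in every KO library than in any flox library. The same holds for lower fibroblast sums, except that KO library 4 lies above flox library 1.

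The monkey comparison asks which transcripts differ between ganglia of SADBE-treated and vehicle-treated skin. No member passed the test: 0 of 37 tested were called, beside 0% of all 17988 genes, and 0 members had an unadjusted p under 0.05, beside 550 genes (3.06%). DESeq2 called 27 genes and limma-voom 0, with 0 members in either. The median log2 fold change was -0.35 over the members and -0.01 over all genes, and 24 of 37 (64.9%) lay below 0, against 50.5% of all genes. Standard errors were wide, with a median of 0.82 on the log2 scale over the members. Groups overlapped for every tested member, while 820 genes (4.56%) lay lower and 832 (4.63%) higher in SADBE without overlap.

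RSPO3 had the lowest p among monkey members, with 1.17, 0.674 and 2.34 CPM in SADBE and 6.23, 1.96 and 2.97 CPM in vehicle libraries. SADBE library 3 lay above vehicle library 2, and the log2 fold change was -1.40 ± 0.73 (unadjusted p = 0.0892 and adjusted p = 0.999 in edgeR's test across all genes). WNT5A had 2.40, 1.91 and 1.36 CPM in SADBE and 8.43, 4.68 and 0.699 CPM in vehicle libraries (log2 -1.29 ± 0.83, adjusted p = 0.999). SFRP5 had 18.3, 5.73 and 7.44 CPM in SADBE and 22.9, 21.2 and 11.8 CPM in vehicle libraries (log2 -0.82 ± 0.56). For WNT5A vehicle library 3 lay below all SADBE libraries, and for SFRP5 SADBE library 1 lay above vehicle library 3. FZD1, FZD7 and WNT11 followed, with log2 fold changes of -1.69 ± 1.19, -0.97 ± 0.72 and -0.99 ± 0.76 and adjusted p-values of 0.999 each.

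RSPO2, the most clearly raised member in mice, had 10.9, 17.7 and 11 CPM in SADBE and 6.14, 14.6 and 18.1 CPM in vehicle libraries. Its log2 fold change was 0.03 with a 95% interval of -1.16 to 1.22. WNT16 had counts of 0, 0 and 17 in SADBE and 31, 2 and 0 in vehicle libraries and was not tested. LGR4 stayed below 4 CPM in all 6 libraries, with 0.475 ± 0.585 TPM in SADBE and 0.754 ± 0.481 TPM in vehicle ganglia (SD, n = 3 each). Counterparts of other called mouse members had wide errors, with log2 fold changes of -1.94 ± 1.53 for RSPO1, -0.43 ± 0.63 for FZD2, -0.54 ± 1.02 for WNT4, -0.09 ± 1.06 for WNT9A, 0.73 ± 0.77 for WNT2B, -0.29 ± 0.71 for WNT5B, 0.07 ± 0.83 for WNT6 and 0.26 ± 0.74 for DKK3. Of the 18 members that fell in mice, 17 were tested in monkeys and 12 lay below 0 (70.6%), beside 55.4% of the 998 lower mouse genes tested there and 50.5% of all monkey genes. Of the 947 higher mouse genes tested there, 57.9% also lay below 0, as did 64.9% of all 37 tested members. These shares therefore show no shared direction between the species.

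Secreted inhibitors were also the most abundant members in monkeys, where 23 of 49 reached 1 TPM and 8 reached 10 TPM in vehicle ganglia. SFRP4 had 69.3, 1462 and 1965 CPM in SADBE and 2247, 314 and 139.9 CPM in vehicle libraries, so both groups spanned most of the range. Its libraries stood in the same order as their summed fibroblast markers, which were 669, 2386 and 2886 CPM in SADBE and 4127, 1333 and 1195 CPM in vehicle libraries. Whether that content sets SFRP4 was not tested, and its log2 fold change of 0.37 had a 95% interval of -2.43 to 3.17. FRZB was steadier, with 129, 107 and 141 CPM in SADBE and 203, 151 and 125 CPM in vehicle libraries (log2 -0.35, 95% interval -1.28 to 0.58).

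WNT3 was the most abundant monkey ligand, with 27.7 ± 8.83 TPM in SADBE and 23.6 ± 14.8 TPM in vehicle ganglia. SFRP1 averaged 11 ± 5.11 TPM in SADBE and 18.5 ± 12 TPM in vehicle ganglia, and DKK3 18.7 ± 7.19 TPM in SADBE and 14.9 ± 11.1 TPM in vehicle ganglia. LRP6 and AXIN2 were low, at 0.545 ± 0.298 and 0.403 ± 0.111 TPM in SADBE and 0.572 ± 0.445 and 0.670 ± 0.313 TPM in vehicle ganglia. DKK4 and WNT8A were at 0 in all 6 libraries, where a count of 0 allows 0.0881 to 0.337 CPM. Of the pathway genes outside the members 0 were called in monkeys, and 0 markers of any cell type.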

How the data were processed

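The members and lists were chosen with earlier results of these data known. The authors deposited estimated counts and TPM per gene. They were made with kallisto against build GRCm38, per the submitters' processing notes. Not given in the sources used here are the kallisto version, the strandedness and the monkey transcriptome. Close paralogs are uncertain, as kallisto shares reads among like transcripts. Sums of the deposited mouse TPM columns, divided by 1000, are 601 to 834 in batch 1 and 954 to 979 in batch 2, so TPM means over both batches mix scales. A row naming no gene (0.0785% to 0.186% of counts) was left out.

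Estimated counts were rounded and tested with edgeR 4.0.16 (R 4.3.3): filterByExpr (minimum count 10, total 15), TMM scaling, robust quasi-likelihood test with batch as a term in mice, and Benjamini-Hochberg adjustment over all genes. Calls have an adjusted p under 0.05. SEs come from the F statistic and 95% intervals from its degrees of freedom. Library pairs of a group differed by a chi-square per gene of at least 21.0 in mice and 26.5 in monkeys, so no library is a copy. Per-library values cover the 12 called members of lowest p, and the named members were every called one, the 6 of lowest p in monkeys and the most abundant per family. Further per-library values of Wnt16, Lgr4, Sfrp1, Axin2 and Wnt2 were chosen after they were seen. Coordinates are from GENCODE M21. Alternatives used DESeq2 1.42.0 and limma 3.58.1 (voom, and log2(TPM + 0.1) or log2(TPM + 1)). The code was tested on simulated data. Intervals and floors cover counting error only where they rest on single counts.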

Additional observations from a re-analysis of the deposited data

Results flagged for a closer look

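Dixon's ratio, which sets the gap of the most extreme library against the range of its group of 7, passed its 95% critical value in 10 of 58 groups of CPM values among 29 named mouse members. Chance gives about 1 in 20 for groups drawn from 1 population. Each group here holds 2 batches whose levels differ for some members, so the counts are not read against that rate. The flox mean TPM of Lgr4 differed 12-fold and that of Sfrp4 3.76-fold, ratios widened by the lower TPM sums of batch 1 libraries. High single libraries were KO library 4 for Fzd2 (46.2 CPM) and Sfrp5 (184.5 CPM), KO library 6 for Rspo3 (7.99 CPM) and KO library 7 for Wif1 (8.11 CPM). Among flox libraries they were library 2 for Rspo3 (24.9 CPM), Wnt4 (37.9 CPM) and Dkk2 (8.29 CPM), library 4 for Sfrp4 (762.3 CPM) and Dkk1 (1.60 CPM), and library 1 for Lgr6 (1.83 CPM). The other 6 flox libraries had 20.8 to 232.2 CPM of Sfrp4. The genotype difference of Sfrp1 differed between batches by -2.09 on the log2 scale, tested as an interaction.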

How the results depend on the processing

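Members called in mice numbered 21, against 9 with no batch term (1 higher, 8 lower), 4 in batch 1 alone (1 higher, 3 lower), 16 without KO libraries 6 and 7, and 16 to 23 when 1 library was left out (2 to 4 higher, 13 to 20 lower), of which 16 to 21 were among the 21. All genes called numbered 2423, against 564 with no batch term, 273 in batch 1 alone, 1757 without KO libraries 6 and 7, 1587 to 3108 with 1 library left out, and 3310 by DESeq2. Interaction calls among members numbered 1, against 3 by DESeq2 (1 higher, 2 lower) and 0 to 2 with 1 library left out (0 to 1 in either direction), and over all genes 161 against 688 by DESeq2. Same-numbered libraries did not deviate together (correlations -0.19 to 0.23 in mice, -0.36 to 0.28 in monkeys). With the replicate block in place of batch, 14 members and 1121 genes were called in mice and 0 in monkeys. The mouse libraries numbered 4 lay in different batches, KO in batch 1 and flox in batch 2, so this block leaves their batch difference in the genotype contrast.

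Sign changes, all of uncalled values, were as follows for every tested mouse member and the named monkey members, and the cause was not tested. In batch 2 alone Axin2 was 0.13, Dkk2 0.12, Wnt7b 0.17 and Rspo4 -0.13, and in batch 1 alone Wnt3 was -0.89 and Fzd4 0.18. Without KO libraries 6 and 7, Dkk1 was 0.45, Wnt3 -0.14 and Fzd4 0.21. Fzd4 was also 0.22 with no batch term, 0.0811 with the replicate block and 0.0222 on log2(TPM + 1), and Wnt7a was 0.0535 on log2(TPM + 0.1) and 0.0384 on log2(TPM + 1). Leaving out 1 mouse library gave -0.79 to 0.54 for Dkk1, -0.31 to 0.17 for Dkk2, -0.24 to 0.13 for Fzd4, -0.0393 to 0.27 for Lrp5, -0.28 to 0.41 for Rspo4, -0.12 to 0.59 for Wnt3 and -0.71 to 0.13 for Wnt7b. In monkeys, LRP6 was -0.0503 by voom and -0.000381 with no filter, and WNT5B was 0.16 and 0.0677 on log2(TPM + 0.1) and log2(TPM + 1). WNT9A was 0.66 by voom, 0.14 on log2(TPM + 0.1) and 0.40 with the replicate block, and WNT10B 0.0241 with that block. Leaving out 1 monkey library gave -1.84 to 0.24 for DKK2, -0.23 to 1.17 for DKK3, -2.88 to 0.0831 for FZD1, -1.25 to 0.00782 for FZD2, -1.83 to 0.18 for LGR5, -0.11 to 0.93 for LRP5, -0.59 to 0.38 for LRP6, -0.32 to 0.33 for RSPO2, -0.27 to 2.36 for SFRP4, -0.42 to 0.42 for WIF1, -0.89 to 0.85 for WNT10B, -0.30 to 0.87 for WNT3, -0.64 to 1.18 for WNT6 and -0.68 to 0.75 for WNT9A. With 3 libraries a group, the median SE of the tested monkey members was 0.82 on the log2 scale, against 0.30 for mouse members.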
